A study of Mus musculus with 8 samples.

Results

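Mouse early T-cell progenitors treated to delete the floxed genes of the transcription factors TCF1 and LEF1 were compared with control progenitors, and the regions described here are stretches of open chromatin that lay close together, away from gene starts, and were found in the control cells only. Peaks of the 4 ATAC-seq lists were merged wherever they shared at least 1 base, with the mitochondrial chromosome left out. A region was kept if both control lists and neither knockout list held a peak there, if its centre lay over 1 kb from any gene start, and if the centre of another such region lay within 25 kb. Of 134830 merged regions, 1752 (1.30%) met these conditions. They formed 766 domains, a domain being a chain of regions whose neighbouring centres lay within 25 kb. The presence and absence of peaks chose these regions, so their ATAC values are a description and no test was made on them. The background on this rule was 4.79% of all merged regions with a peak in both control lists only and 6.63% with a peak in both knockout lists only.

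The cells came from bone marrow LSK cells, a stem and progenitor fraction, of mice with a CreER transgene and either wild-type (control) or floxed Tcf7 and Lef1 alleles (knockout). Both groups were grown on OP9-DL1, a mouse stromal line carrying the Notch ligand Delta-like 1, and both received 4-OH tamoxifen from day 3 to day 5, so the control cells saw the same Cre and the same drug. On day 7, lineage-negative, CD44-high, CD25-negative, c-Kit-positive DN1 cells were sorted, and each genotype gave 2 RNA-seq and 2 ATAC-seq libraries. The deletion was made in culture, the labels do not say which exons are floxed or which promoter drives CreER, and they name no animal or culture for any replicate. What a p-value measures here is the spread between libraries, which may be technical. In bulk samples such as these, fewer cells of a type and less RNA per cell cannot be told apart.

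Tcf7 and Lef1 encode TCF1 and LEF1, HMG-box proteins that bind DNA, and Tcf7 is switched on by Notch signalling at the start of the T lineage. Open chromatin away from gene starts often marks enhancers, and several enhancers can lie in a row around one gene. TCF1 is known to act at such sites in thymocytes, together with factors such as RUNX1 and GATA3.

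Each ATAC list held 103009 to 111007 peaks, and 13050 to 13314 genes stood at 1 TPM or more in the RNA libraries. As a check on the cells, 6 T-lineage markers summed to 333 and 334 TPM in control and to 15.5 and 16.0 TPM in knockout, with Cd3e, a chain of the T-cell receptor complex, listed at 0 in both knockout libraries. The 8 stromal markers summed to 475 and 504 TPM in control and to 1235 and 1051 TPM in knockout, and 8 of 8 were above both control libraries in both knockout libraries. The 4 myeloid markers summed to 1172 and 1181 TPM in control and to 2579 and 2491 TPM in knockout (3 higher, 1 lower). The 4 progenitor markers went from 419 and 393 to 472 and 479 TPM (3 higher, 1 lower). The 3 mast markers went from 205 and 202 to 315 and 304 TPM (2 higher, 1 lower). The 3 B markers summed to 1.96 TPM or less in every library.

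DNA letters could be read for 10 of the 1752 regions, those overlapped by a 300-base RefSeq window around an annotated start (GRCm38.p6, the same build as mm10). The distance condition used the starts in the expression files, which place none within 1 kb of these centres. The overlaps ran from 48 to 221 bases. The 5 below are shown because the nearest gene is a surface, signalling or transcription factor gene of blood cells with a measured change in RNA. All 5 genes passed as lower in knockout. Since RNA entered the choice, these falls do not describe the nearest genes of all 10, and the RNA of the rest is not given. Each is named by its nearest gene in the expression files and covers 34.9% of the Rasgrp1 region, 100% of Itga4, 74.8% of Tgfbr2, 26.1% of Ptprf and 54.4% of Irf8. The RefSeq starts in these windows belong to other genes. They are Gm13982 at the Rasgrp1 region, Gm35813 at Itga4, Gm4668 at Tgfbr2, Gm40235 at Ptprf and Gm39267 at Irf8. The letters are on the plus strand, 5′ to 3′, and capitals mark the RUNX word TGTGGT or its reverse complement ACCACA.
Rasgrp1 member, chr2:117417648-117417778: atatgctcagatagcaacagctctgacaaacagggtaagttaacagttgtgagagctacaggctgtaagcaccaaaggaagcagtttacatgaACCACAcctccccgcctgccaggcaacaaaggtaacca
Itga4 member, chr2:79231127-79231325: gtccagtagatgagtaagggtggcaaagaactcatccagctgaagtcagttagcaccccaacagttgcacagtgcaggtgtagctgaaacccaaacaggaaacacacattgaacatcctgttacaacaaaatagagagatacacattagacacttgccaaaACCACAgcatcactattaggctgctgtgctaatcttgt
Tgfbr2 member, chr9:116189043-116189229: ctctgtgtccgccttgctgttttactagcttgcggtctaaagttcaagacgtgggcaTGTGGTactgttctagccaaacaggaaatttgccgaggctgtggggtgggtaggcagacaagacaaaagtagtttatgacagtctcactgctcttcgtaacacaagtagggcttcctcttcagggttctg
Ptprf member, chr4:118257432-118257512: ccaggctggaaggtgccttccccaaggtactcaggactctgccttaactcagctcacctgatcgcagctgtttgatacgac
Irf8 member, chr8:120867572-120867706: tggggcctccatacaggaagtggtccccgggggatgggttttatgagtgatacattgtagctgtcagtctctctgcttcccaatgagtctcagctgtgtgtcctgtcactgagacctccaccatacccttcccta
The Rasgrp1, Itga4 and Tgfbr2 stretches each held 1 RUNX word, and 4 of the 10 stretches did so. The TCF/LEF word CTTTGA was searched on both strands and was in 0 of 10. Among 32851 RefSeq start windows of 300 bases, 16.8% held the RUNX word and 16.0% the TCF/LEF word. The stretches are shorter than those windows, so the shares are not on one footing. The ETS word AGGAAG was in 4 of 10 stretches (35.4% of windows), the E-box CAGCTG in 4 (16.3%), and the GATA word AGATAA (11.2%) and the AP-1 word TGANTCA (7.81%) in 0. Each word was counted on its own, overlaps between different words included. These counts describe these exact letters only. Other forms of each word were not searched, so a count of 0 does not show that a stretch lacks a binding site.

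The RNA of these 5 neighbours was as follows. Rasgrp1, which activates Ras below the T-cell receptor, stood at 12.6 and 10.8 TPM in control and at 2.0 and 1.76 TPM in knockout (log2 change −2.14, SE 0.17, limma adjusted p = 0.000932). Its region lay 74.7 kb from the gene start, with −log10 q of 20.1 and 19.9 in the control lists. Itga4, the integrin alpha-4 chain used in homing, stood at 270.3 and 274 TPM in control and at 114 and 110.2 TPM in knockout (log2 change −1.28, SE 0.04, adjusted p = 0.000147), with its region 24.2 kb from the start. For both genes the libraries of the genotypes were far apart and did not overlap. Tgfbr2, a TGF-beta receptor chain, stood at 53.1 and 52.6 TPM in control and at 39.2 and 36.3 TPM in knockout (log2 change −0.48, SE 0.07, adjusted p = 0.00491), 13.8 kb from its region. Ptprf, a receptor tyrosine phosphatase, went from 6.63 and 6.83 TPM to 0.502 and 0.316 TPM (log2 change −2.46, SE 0.21, adjusted p = 0.00116). Irf8, a transcription factor of myeloid and lymphoid progenitors, went from 57.8 and 54.7 TPM to 47.3 and 48.1 TPM (log2 change −0.23, SE 0.06, adjusted p = 0.0340) with the region 131 kb away, and this call was lost when any 1 RNA library was left out.

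Most domains were pairs. There were 610 domains of 2 regions, 118 of 3, 22 of 4, 12 of 5, 2 of 6, 1 of 8 and 1 of 10. The 1752 regions were 28.2% of the 6210 distal control-only regions, and the other 4458 stood alone. The same rule turned round, with peaks in both knockout lists only, gave 2403 clustered regions of 8366 (28.7%) in 1082 domains. The largest of those held 6 regions, and 40 held at least 4, against 38 domains of at least 4 among the control-only ones. The median domain spanned 13.6 kb (range 0.448 to 114.9 kb), and neighbouring centres lay a median 11.0 kb apart, with 237 of 986 gaps (24.0%) under 5 kb.

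Most member peaks were weaker than those of regions found in every list. The authors' peak caller gave a median −log10 q of 10.9 in control 1 and 11.2 in control 2. The lower of the pair had a median of 9.13, beside 9.0 for the isolated control-only regions and 24.9 for distal regions present in all 4 lists. It reached 20 in 284 members (16.2%), in 13.1% of isolated regions and in 58.0% of distal regions in all 4 lists. Median fold enrichment over local background was 6.17 and 6.20 in the members and 9.95 and 10.04 in the regions of all 4 lists. The members were also narrower, at a median of 244 bases against 346. No value exists for a member in the knockout lists, and a signal just under the caller's threshold would look the same as none. The lowest member value was 3.32, upstream of Mixl1. The Spearman correlation of −log10 q between the control lists was 0.69 over the 1752 members, which share the merging and the libraries' depth.

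**Figure D1:**
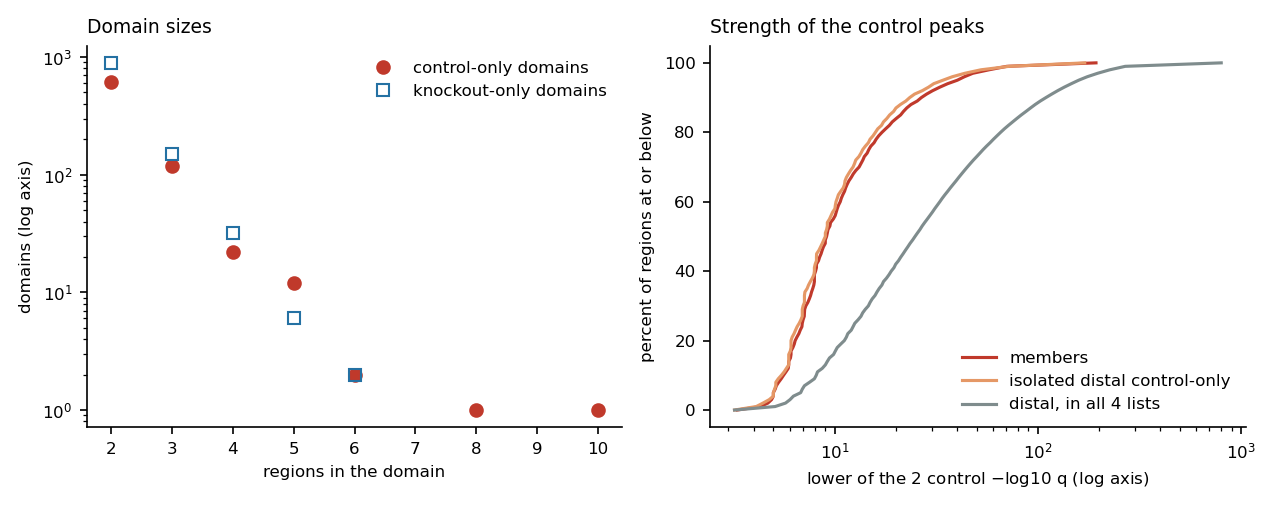
Left, the number of domains (log axis) by the number of regions in the domain, for control-only (filled circles) and knockout-only (open squares) regions. Right, the cumulative percent of regions by the lower of the 2 control −log10 q values (log axis), where members (median 9.13) and isolated control-only regions (median 9.0) run close together and distal regions of all 4 lists (median 24.9) lie to the right.

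The regions lay a median 29.4 kb from the nearest gene start (isolated regions, 29.8 kb). Of the members, 928 (53.0%) lay inside a gene, 617 of them inside the gene with the nearest start and 311 inside another, and 824 lay between genes. Of the 766 domains, 631 had a single nearest gene. The share of distal control-only regions that were clustered ran from 11.7% on chromosome X (12 of 103) to 34.3% on chromosome 6 (135 of 394), apart from chromosome Y with 3 of 3. The members just inside the limits had a partner 24.96 kb away, at Galnt3, and a start 1.01 kb away, at Alad. Just outside lay regions in Fgd6 with a partner at 25.01 kb and a region at Fam96b 999.5 bases from the start.

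The strongest member (lower control value 194) lay inside Foxn3, a forkhead factor gene, at chr12:99329131-99329626 (mm10), in a domain of 4. The next lay inside Aldh1a3, a retinaldehyde dehydrogenase gene, at chr7:66416524-66417092 (lower value 179). Foxn3 RNA stood at 72.6 and 64.2 TPM in control and 57.4 and 58.3 TPM in knockout, which did not pass the test (log2 change −0.24, SE 0.08, adjusted p = 0.0573). It passed as lower in 4 alternatives, namely quantile normalization (0.0290), median-ratio scaling (0.0278), FPKM (0.0424) and without control replicate 2 (0.0442). Aldh1a3 was at 0.219 TPM or less in all 4 libraries. The other 8 of the 10 strongest regions had lower control values of 94.3 to 131, and 6 of these 8 lay in a domain of 2 regions.

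Other open regions lay among the members. The domain spans held 3267 regions, of which 1754 were control-only, 932 were in all 4 lists, 112 were knockout-only and 469 had another pattern. A region of all 4 lists lay in 414 of the 766 spans and a knockout-only region in 98, and 248 spans held control-only regions alone. The 932 regions of all 4 lists inside the spans include regions at gene starts. For these 932, the median log2 ratio of knockout to control fold enrichment was 0.05, and 400 (42.9%) had the lower mean in knockout. Over all distal regions of all 4 lists, which leave out gene starts, the values were 0.02 and 47.1%. The sets differ in this way, so these values are not on the same footing.

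The largest domain surrounded Tcf7 itself. It held 10 members between 52240949 and 52341443 on chromosome 11, of which 3 lay inside Tcf7 (52252283 to 52283014, minus strand), 1 inside Skp1a and 6 between genes, upstream of Tcf7 and of Vdac1. The strongest lay 20.9 kb into Tcf7 (−log10 q 52.6 and 46.6) and 19.6 kb upstream of Vdac1 (47.8 and 70.5). A member 1.45 kb upstream of the Tcf7 start had values of 27.4 and 20.9. The span also held 10 regions of all 4 lists and 2 knockout-only regions. Reads from floxed DNA that is deleted would be missing in knockout whatever the chromatin, and whether any of the 3 members inside Tcf7 lay in the deleted part was not tested. The other 7 members lay outside the gene.

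Tcf7 RNA stood at 518 and 510 TPM in control and at 13.2 and 12.4 TPM in knockout (log2 change −5.22, SE 0.06, limma adjusted p = 8.64e-06). Its adjoining genes Skp1a and Vdac1 moved far less. Skp1a, a subunit of the SCF ubiquitin ligase, stood at 467 and 466 TPM in control and at 405 and 399 TPM in knockout (log2 change −0.21, SE 0.03, adjusted p = 0.00547). Vdac1, a mitochondrial outer membrane channel, stood at 136 and 130 TPM in control and at 157 and 154 TPM in knockout (log2 change 0.23, SE 0.05, adjusted p = 0.0155). That rise was lost under quantile normalization, under median-ratio scaling and when control replicate 2 or one of the knockout replicates was left out (adjusted p up to 0.298). Further out, the olfactory receptor gene Olfr1373, 95.4 kb past the domain, passed as lower at low levels (1.76 and 2.21 against 0 and 0.310 TPM, log2 change −1.38, adjusted p = 0.0181, up to 0.0769 without single libraries). 9530068E07Rik, 54.99 kb past the other end, passed as higher (63.1 and 66.7 against 79.1 and 78.0 TPM, log2 change 0.27, adjusted p = 0.0159). That call was lost in 5 alternatives, both scalings among them (adjusted p up to 0.0726).

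Lef1 had a single pair of members, 173 kb from its start, and none inside the gene. Its RNA was low in every library, at 1.66 and 1.10 TPM in control and 1.46 and 1.57 TPM in knockout (log2 change 0.09, adjusted p = 0.803). The gene-level RNA therefore shows the loss of Tcf7 and does not show that of Lef1.

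**Figure D2:**
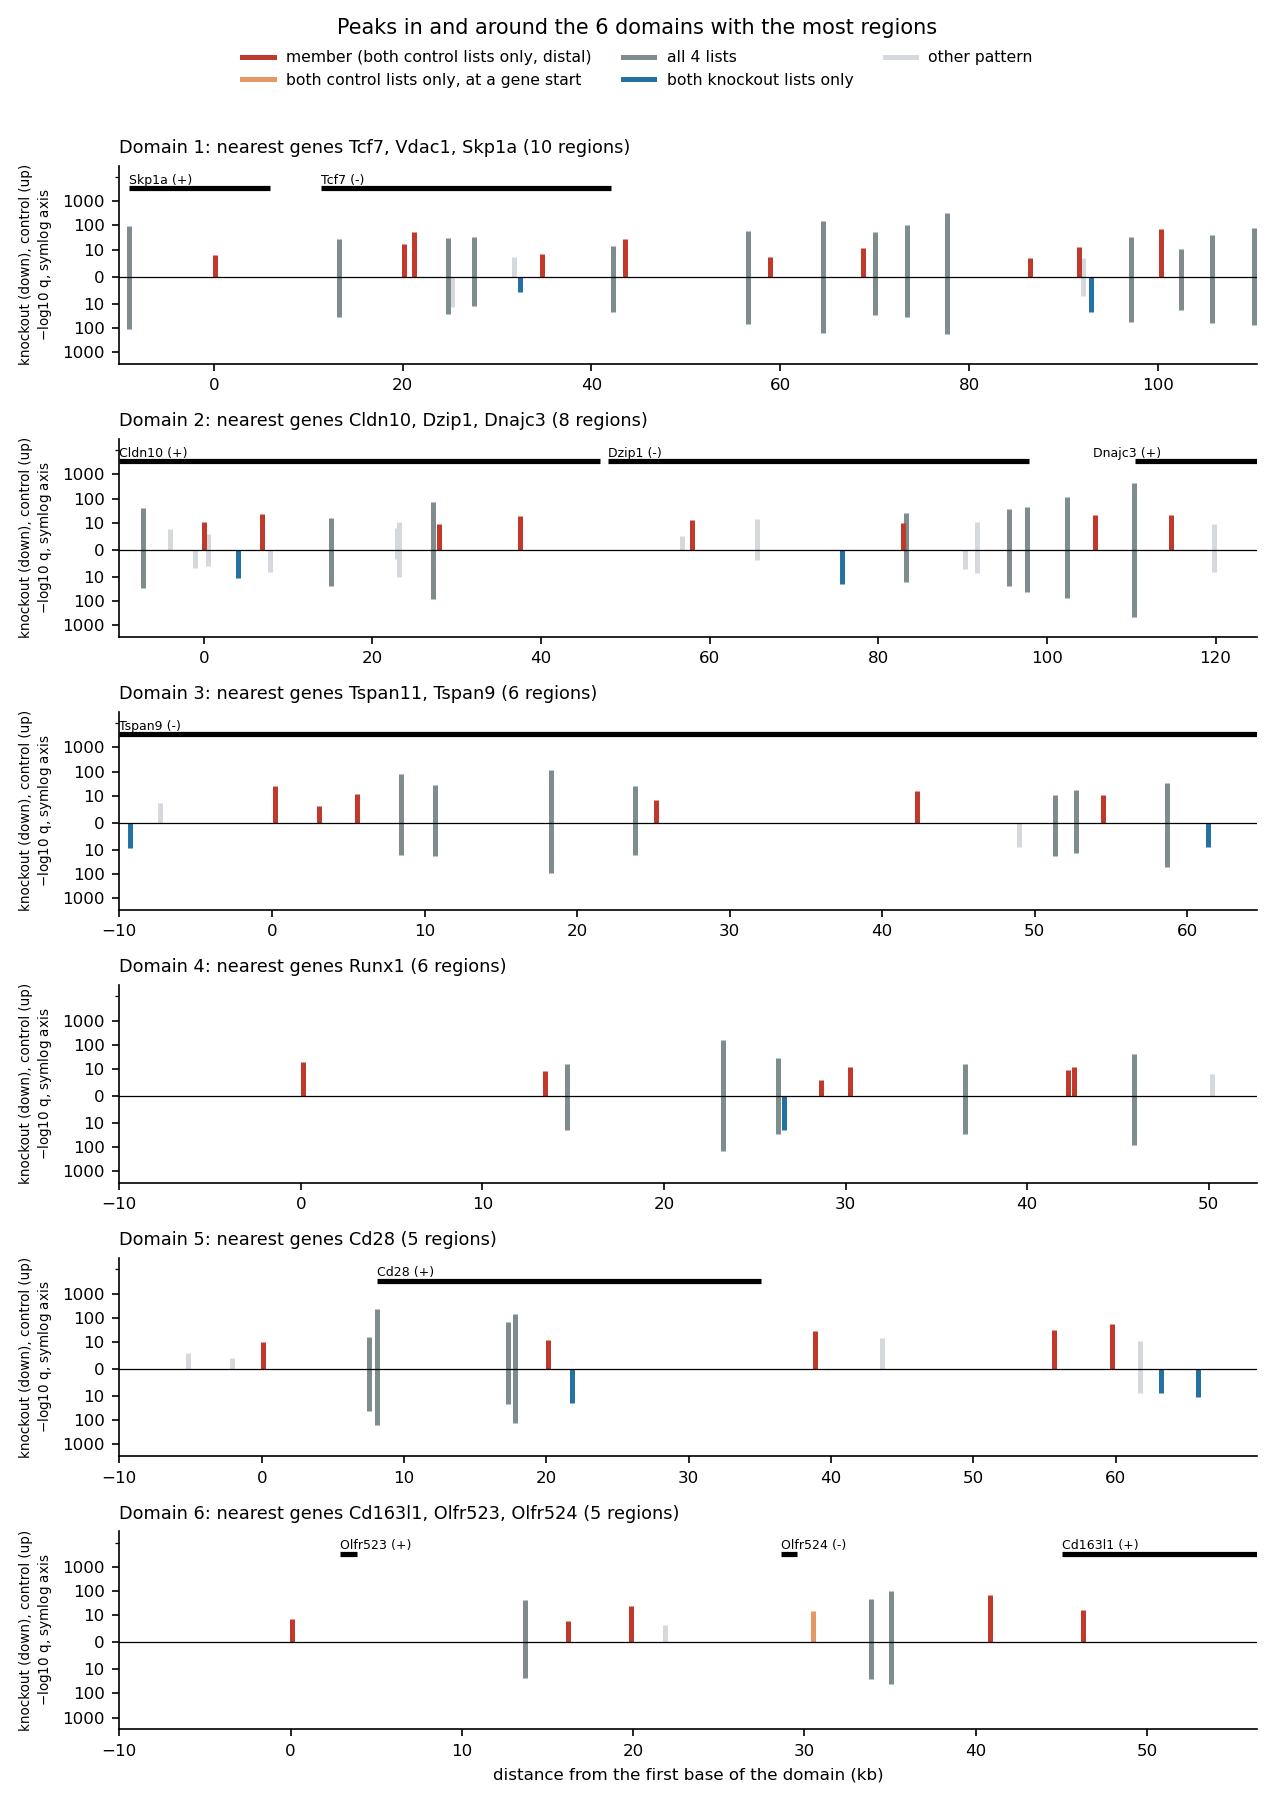
Peaks in the 6 domains with the most regions, by distance in kb from the first base of the domain, with 10 kb on either side. Bars reach up to the higher of the 2 control −log10 q values and down to the higher of the 2 knockout values (symlog axis, linear up to 10), and black lines are genes with their strand. The members (red) reach only upward by the rule, and regions of all 4 lists (grey) stand between them in each domain shown. In domain 6 a further control-only region at a gene start (orange) is no member.

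The second domain ran over Cldn10, Dzip1 and Dnajc3 with 8 members on chromosome 14 (118827540 to 118942455), the longest span of all at 114.9 kb. Cldn10, a claudin gene that held 4 members, was listed at 0 in all 4 libraries. Dzip1, a zinc finger gene of ciliary signalling, stood at 11.5 and 12.1 TPM in control and at 6.22 and 6.15 TPM in knockout (log2 change −0.84, SE 0.13, adjusted p = 0.00564). Dnajc3, an endoplasmic reticulum co-chaperone, stood at 40.5 and 38.4 TPM in control and 37.2 and 35.7 TPM in knockout (not called, adjusted p = 0.263). Thus the gene holding 4 of the 8 members of this domain had no RNA listed, and its neighbour Dzip1 fell.

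Runx1, a transcription factor of blood stem cells and T progenitors, was the nearest gene of a domain of 6 regions that lay between genes, 180 to 222 kb upstream of the start that the files list (chr16:93005541-93048197; the gene is listed at 92601466 to 92826074, minus strand). No other gene start lay within 100 kb of this domain. All 6 were of modest strength, with lower control values of 5.52 to 12.7. Runx1 RNA stood at 102 and 94.9 TPM in control and at 64.3 and 61.8 TPM in knockout, a 1.56-fold lower mean (log2 change −0.63, SE 0.06, adjusted p = 0.00142). The other domain of 6 lay wholly inside the tetraspanin gene Tspan9, although 4 of its members were nearer to the start of Tspan11. Tspan9 stood at 5.60 and 7.34 TPM in control and at 3.04 and 3.27 TPM in knockout (log2 change −0.84, SE 0.19, adjusted p = 0.0217; lost in 4 alternatives, up to 0.108). Tspan11 was at 0.60 TPM or less in every library.

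Cd28, the main co-stimulatory receptor of T cells, had 5 members over 59.9 kb (chr1:60738258-60798179, with the gene at 60746388 to 60773359), 1 upstream, 1 inside and 3 beyond the gene. The lower of the control values was 4.99 upstream, 9.45 inside the gene, then 25.6 and 22.2, and 55.2 at the far end, 51.6 kb from the start. Cd28 RNA was low and lower still in knockout, at 2.80 and 2.86 TPM against 0.794 and 0.518 TPM (log2 change −1.21, SE 0.24, adjusted p = 0.0141). The call was lost without either control replicate or without knockout replicate 2 (adjusted p up to 0.0620). The sixth domain held 5 members around Cd163l1, a scavenger receptor gene, and the olfactory receptor genes Olfr523 and Olfr524. Its strongest member lay 4260 bases upstream of Cd163l1 (−log10 q 65.5 and 60.9), at chr7:140213827-140214187. Cd163l1 stood at 3.64 and 2.87 TPM in control and at 0.527 and 0.369 TPM in knockout (log2 change −1.55, SE 0.25, adjusted p = 0.00702). Beside it, 27.7 kb past the domain, 5830411N06Rik went from 6.62 and 7.64 TPM to 0.050 and 0.241 TPM (log2 change −2.83, adjusted p = 0.00100), while Echs1, a mitochondrial enzyme 56.8 kb away, was higher (43.9 and 43.4 TPM against 58.2 and 57.8 TPM, adjusted p = 0.00491). Olfr524 passed as lower at very low levels (1.28 and 2.74 against 0.305 and 0 TPM, adjusted p = 0.0343) and lost the call in 5 alternatives (up to 0.123).

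The nearest genes of the next domains included called and uncalled ones. Dusp5, a phosphatase that switches off ERK, stood at 192 and 180 TPM in control and at 77.2 and 74.4 TPM in knockout (log2 change −1.28, SE 0.05, adjusted p = 0.000245), and the non-coding Mirt1 in the same domain at 8.95 and 10.1 against 1.68 and 1.72 TPM. Mcoln2, a lysosomal channel, stood at 17.0 and 12.6 against 8.24 and 6.87 TPM, and Ptprj, the phosphatase CD148, at 23.8 and 23.4 against 18.5 and 18.1 TPM. Both passed as lower with all libraries, and each lost the call when single libraries were left out (adjusted p up to 0.0804 for Mcoln2 and 0.107 for Ptprj). Fasl, the ligand of the death receptor Fas, had 7 members in 2 domains, the joint most of any named gene with the integrin gene Itgb6, and did not pass (2.75 and 3.33 against 1.81 and 2.93 TPM, adjusted p = 0.420). Nfatc2, a calcium-regulated transcription factor with 5 members inside it, stood at 19.4 and 19.4 against 16.1 and 17.4 TPM and did not pass either (adjusted p = 0.152). Itgb6 was at 0.641 TPM or less in all libraries, and Lpar3, beside Mcoln2, at 0.251 TPM or less. Of the 38 domains of at least 4 regions, 16 had a nearest gene that passed as lower and 1 (the Tcf7 domain) also 1 that passed as higher. Another 15 had a tested gene and no call, and 7 had no nearest gene above the TPM filter. Over all 13228 genes tested, 14.7% were lower and 25.2% higher. Those are shares of genes, and a domain can have more than 1 nearest gene, so the counts of domains are not on the same footing.

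Kcnk5 and Prkch, which also lay near domains of at least 4 regions, were chosen after their values were seen. Kcnk5, a potassium channel with 5 members, the nearest 2.88 kb from its start, stood at 14.97 and 13.4 TPM in control and at 4.68 and 4.34 TPM in knockout (log2 change −1.46, SE 0.14, adjusted p = 0.00140). Prkch, the protein kinase C eta gene, had 6 members in 2 domains, all inside the gene, and stood at 73.5 and 69.1 TPM in control and at 27.9 and 29.0 TPM in knockout (log2 change −1.30, SE 0.07, adjusted p = 0.000378). In both genes the control libraries lay more than 2 times above the knockout libraries. The remaining lower genes of domains of at least 4 regions not described elsewhere were Celsr1, Dguok, Ggt5, St8sia1 and Zfpm1, and each lost its call in at least 2 alternatives. Dlk1, Galnt2, Galnt3, Gadd45g and Ust, with 4 members each, were not called or too low to test.

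Over all domains, 873 genes were nearest to a member and 584 of them had a mean of at least 1 TPM. In knockout 164 of the 584 (28.1%) were lower, 89 (15.2%) were higher and 331 did not pass. Their median log2 change was −0.07. Of all 13228 genes tested, 14.7% were lower and 25.2% higher, with a median of 0.09. Under median-ratio scaling the same shares were 32.9% and 11.3% for the nearest genes and 18.1% and 19.5% for all genes. No test of a gene list was made, so these shares stand beside the background as a description. Among genes nearest to isolated control-only regions, 480 of 2392 (20.1%) were lower and 541 (22.6%) higher. Among genes nearest to clustered knockout-only regions, 141 of 816 (17.3%) were lower and 218 (26.7%) higher. The 6 T-lineage markers were lower and the 8 stromal markers higher in knockout, as given above, and their part in these shares was not tested.

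The share of lower genes was larger where the domain held more regions. In domains of 2 it was 110 of 452 (24.3%), in domains of 3 it was 41 of 105 (39.0%), and in domains of at least 4 it was 19 of 37 (51.4%). The shares that were higher were 76 (16.8%), 13 (12.4%) and 1 (2.70%), the last being Vdac1. The median log2 changes were −0.02, −0.21 and −0.35. This split by size was chosen after values were seen, and a gene can count in more than 1 class. In knockout-only domains of at least 4, 9 of 44 tested genes were lower and 9 were higher. By distance, the lower share was 30.6% where the nearest member lay within 10 kb of the start, 28.9% from 10 to 50 kb and 23.0% beyond 50 kb. By the strongest member's value in the weaker control list it was 49 of 196 genes under 10, 31.7% from 10 to 20 and 27.1% at 20 or more.

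**Figure D3:**
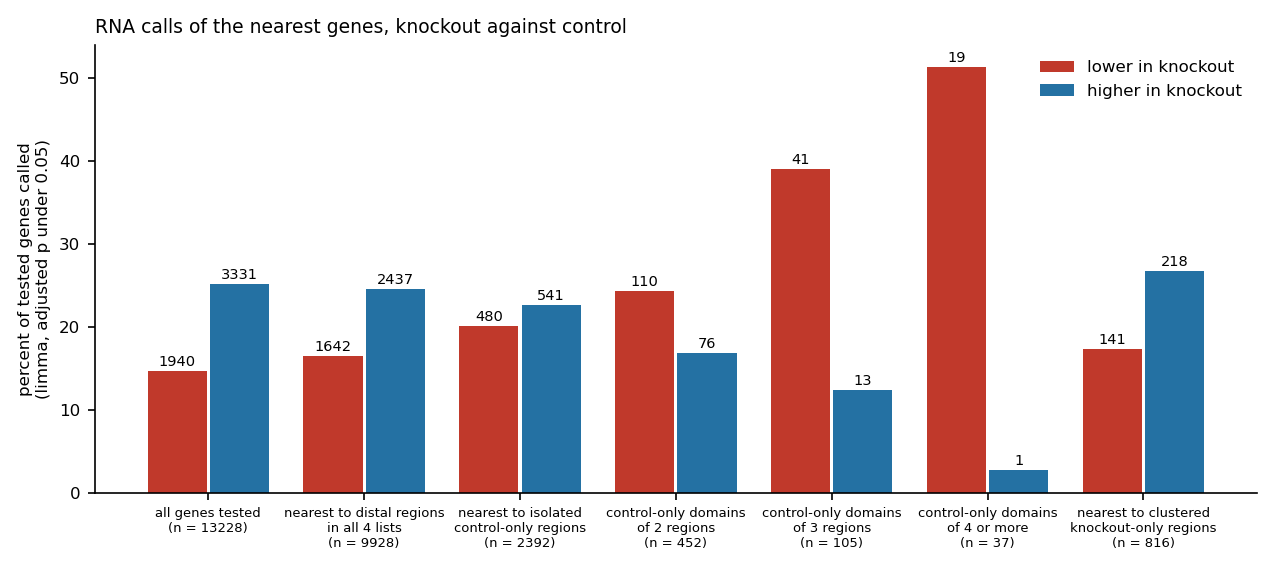
Percent of tested genes that passed limma at adjusted p under 0.05, lower (red) and higher (blue) in knockout, with the number of genes above each bar. From all genes (14.7% lower, 25.2% higher) to genes nearest to domains of 4 or more regions (51.4% and 2.70%), the lower share is larger and the higher share smaller, without a test of the difference.

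**Figure D4:**
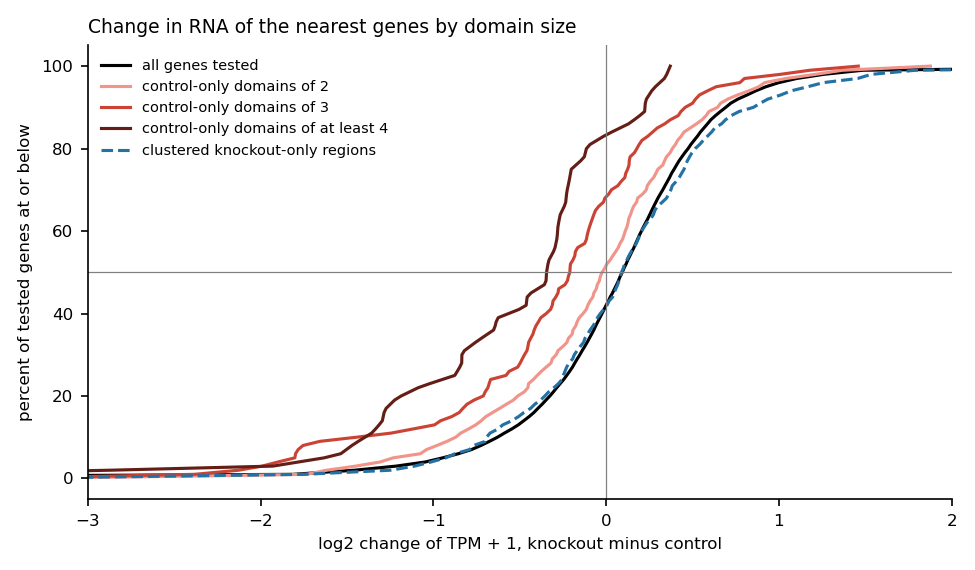
Cumulative percent of tested genes by log2 change of TPM + 1, knockout minus control, for all genes and for the nearest genes of each domain size. The curves cross 50% at 0.09 for all genes and clustered knockout-only regions, at −0.02 for domains of 2, at −0.21 for domains of 3 and at −0.35 for domains of at least 4 (axis limited to −3 to 2, which leaves Tcf7 out).

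The 12 largest falls among nearest genes included receptor and signalling genes of lymphocytes. After Tcf7 came Fgf3, a fibroblast growth factor, at 146 and 151 TPM in control and 12.50 and 11.4 TPM in knockout (log2 change −3.53, SE 0.07, adjusted p = 6.13e-05), with 3 members, the nearest 1.16 kb from the start and the strongest at 65.9. Cd247, the zeta chain of the T-cell receptor complex, had 2 members inside it and stood at 20.1 and 24.0 TPM in control and 0.578 and 2.16 TPM in knockout (log2 change −3.36, SE 0.34, adjusted p = 0.00175). Il7r, the interleukin-7 receptor that early T cells need, stood at 10.5 and 9.64 against 1.25 and 0.962 TPM (log2 change −2.39). In each of these the lower control library was several times above the higher knockout library.

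Il10ra, an interleukin-10 receptor chain, stood at 54.4 and 54.6 against 9.50 and 9.24 TPM, and Clnk, an adaptor of immune receptor signalling, at 39.6 and 34.6 against 9.36 and 8.77 TPM. Gzma, the granule protease granzyme A, stood at 134 and 126 against 35.8 and 37.2 TPM. The lipocalin gene Lcn4 (14.7 and 14.8 against 2.22 and 1.52 TPM) and Prelid2 (23.2 and 24.8 against 3.54 and 7.59 TPM) complete the 12 with Rasgrp1, Ptprf and Mirt1. All 12 had control libraries above both knockout libraries, as the choice required. The call of Prelid2 was lost without control replicate 2 (adjusted p = 0.0522).

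The 8 largest rises ran from log2 1.31 to 1.88, against −1.80 to −5.22 for the 12 falls. Scarf1, a scavenger receptor gene with 1 member inside it, stood at 1.91 and 2.52 TPM in control and at 11.0 and 10.6 TPM in knockout (log2 change 1.88, SE 0.18, adjusted p = 0.00136). Sfrp2, a secreted Wnt antagonist, stood at 7.10 and 6.53 against 28.4 and 18.4 TPM, and Epas1, a hypoxia-inducible factor, at 9.07 and 8.58 against 28.7 and 22.2 TPM. G0s2, an inhibitor of fat breakdown, stood at 10.2 and 11.1 against 27.7 and 28.1 TPM. Matn1, a cartilage matrix protein, was nearly silent in control (0.0782 and 0.0869 TPM) and low in knockout (2.24 and 1.74 TPM). Shisa4 (1.13 and 2.37 against 10.7 and 6.99 TPM) and the guidance gene Sema3d (2.46 and 3.61 against 9.06 and 9.05 TPM) were the others beside Cxcl12. The nearest member lay 183 kb from the start of Epas1 and 270 kb from that of Sema3d. Cxcl12, the chemokine made by marrow stroma, stood at 239 and 234 TPM in control and at 653 and 537 TPM in knockout (log2 change 1.32, SE 0.09, adjusted p = 0.000668). The stromal markers given above were also higher in knockout, and their part in these rises was not tested. The rise of Matn1 was lost without knockout replicate 1 (adjusted p = 0.0657).

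**Figure D5:**
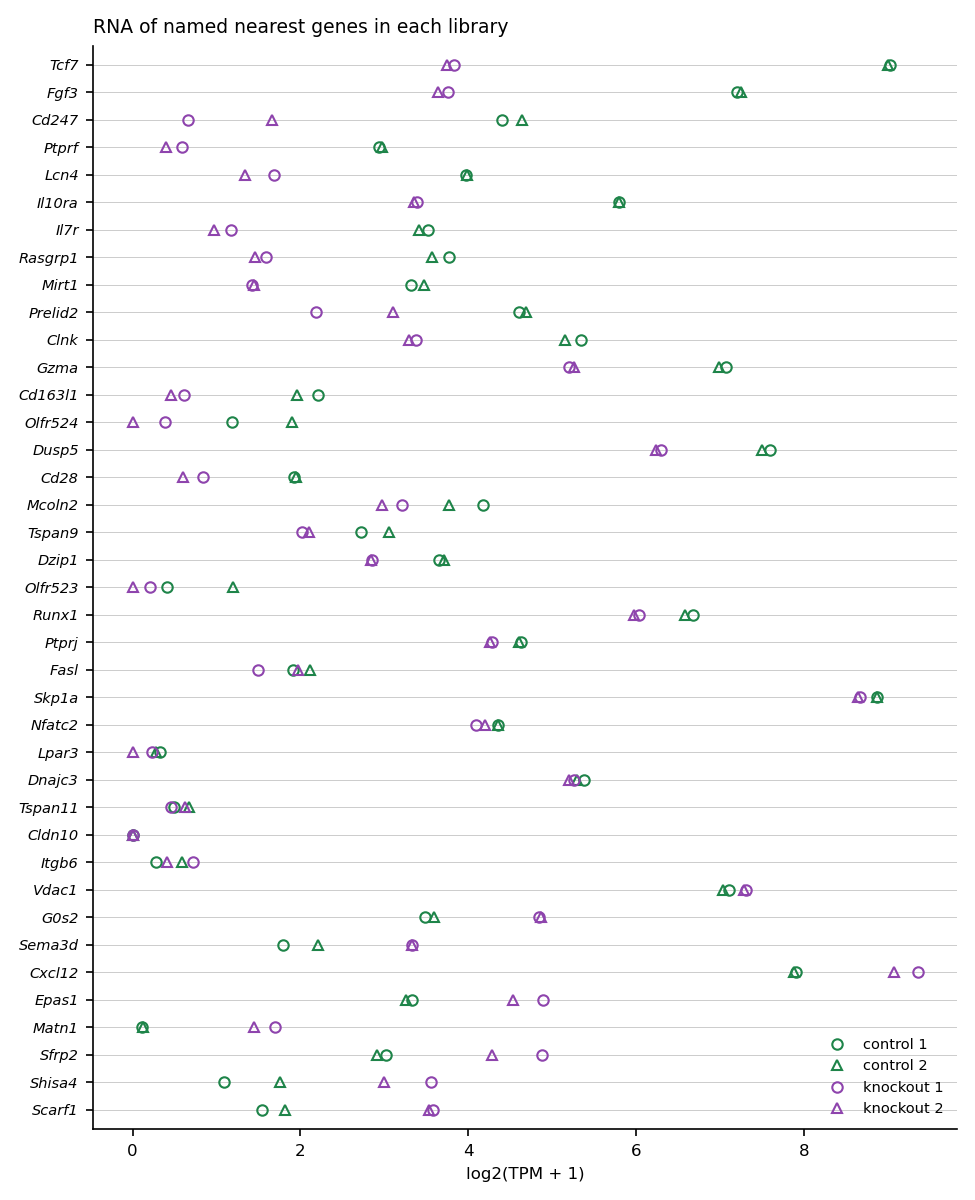
log2(TPM + 1) of the nearest genes of the 12 largest domains and of the largest falls and rises, 1 symbol per library (circles replicate 1, triangles replicate 2), ordered by the difference in means. Control (green) lies to the right of knockout (purple) from Tcf7 at the top down to genes such as Runx1, and to the left from Vdac1 to Scarf1 at the bottom.

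The T-lineage list of 32 genes had 8 nearest genes of members: Tcf7, Lef1, Cd247, Cd28, Il7r, Rag2, Themis and Zap70. Over all 24538 genes in the files the share nearest to a member was 3.56%. Isolated control-only regions had 15 genes of the list as nearest genes (3701 genes in all), and clustered knockout-only regions had 1 (1223 in all). Of the 6 that could be tested, 5 were lower, 0 higher and 1 (Lef1) did not pass. The 5 include Tcf7, a floxed gene whose fall follows from the design. Over the whole list 24 of 26 tested genes were lower and 0 higher, and the list holds all 6 T-lineage markers summed above, whose part in these counts was not tested. Rag2, which cuts the receptor genes for recombination, stood at 6.25 and 4.99 against 2.13 and 2.64 TPM (adjusted p = 0.0166, up to 0.0905 without single libraries). Themis, a regulator of receptor signalling, had 1.25 and 1.81 TPM in control and was listed as 0 in each knockout library. Zap70, the kinase below the receptor, was too low to test.

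Of 24 stem and progenitor genes, 4 were nearest genes. Kit, the stem cell factor receptor on which the cells were sorted, stood at 251 and 238 against 157 and 157 TPM (log2 change −0.64, SE 0.04, adjusted p = 0.000668). Its nearest member lay 165 kb from its start. Myb, a transcription factor of progenitors, stood at 622 and 638 against 465 and 461 TPM (log2 change −0.44, SE 0.03, adjusted p = 0.000748), and Runx1 fell as given above. Bcl11a did not pass (84.6 and 85.7 against 92.1 and 91.4 TPM). Over the whole list 9 of 24 were lower and 11 higher, and 9 of its genes were nearest to clustered knockout-only regions.

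In the list of TCF partners and Wnt targets, 5 of 16 were nearest genes, and 3 of the 4 tested were lower. The floxed genes Tcf7 and Lef1 are among these 4, and the fall of Tcf7 follows from the design. The whole list went both ways, with 5 of 13 tested genes lower, 3 higher and a median log2 change of 0.05. The lower nearest genes beside Tcf7 were Tle4 and Axin2. Tle4, a Groucho corepressor, stood at 32.4 and 30.4 against 19.7 and 22.4 TPM (limma adjusted p = 0.00899). Axin2, a Wnt feedback gene, stood at 3.24 and 2.44 against 1.06 and 1.30 TPM (limma adjusted p = 0.0466). The nearest member to Axin2 lay 168 kb from its start. The Axin2 call was lost in 8 alternatives (up to 0.165) and that of Tle4 without control replicate 1 (0.0638). Lef1 did not pass and Nkd1, another feedback gene, was too low to test. Notch1, the receptor that OP9-DL1 engages, had 2 members inside it, the nearest 1.43 kb from its start, and stood at 159 and 161 against 79.5 and 77.0 TPM (log2 change −1.02, SE 0.05, adjusted p = 0.000281). It was the single nearest gene among 12 Notch pathway genes, of which 5 of 10 tested were lower and 1 higher. Clustered knockout-only regions had 3 of the 12 as nearest genes and isolated control-only regions 5. Over all 24538 genes in the files 3.56% were nearest to a member.

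The other lists had few genes near members. From the NK and innate lymphoid list of 16, Gzma and Nfil3, a transcription factor of innate lymphoid cells (16.2 and 14.8 against 7.36 and 8.49 TPM, adjusted p = 0.00508), were lower, and Ncr1 was too low to test. Over that whole list 7 of 10 tested genes were lower and 0 higher. Itgax, the integrin CD11c, was the single B-lineage or dendritic gene (18.6 and 16.6 against 10.0035 and 11.0 TPM, adjusted p = 0.00844, lost without control replicate 1, 0.0618), and Irf8 the single one of 23 myeloid genes. Of the B-lineage and dendritic list 4 of 10 tested genes were lower and 2 higher, and of the myeloid list 6 of 23 were lower and 10 higher. None (0) of 14 mast cell and basophil genes was nearest to a member, to a clustered knockout-only region or to an isolated one. Of all 24538 genes in the files 3.56% were nearest to a member. From the 16 stromal genes, of which 11 of 14 tested were higher and 1 lower, Cxcl12 was nearest to members and 4 genes were nearest to clustered knockout-only regions.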

How the data were processed

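Each assay, RNA-seq and ATAC-seq, had 4 libraries, 2 per genotype, grouped by sample titles. Per the submitters' processing notes, RNA was aligned with HISAT2 and quantified with StringTie, and for ATAC-seq Bowtie2 and MACS2 were used, all on mm10 and without stated versions. The deposited TPM column is the authors' expression value per gene, and TPM of repeated gene entries was summed. The deposited FPKM column was used only as an alternative, and the deposited coverage signal was not used. The deposited peak lists give the authors' fold enrichment (a ratio to the local background) and −log10 p and −log10 q per peak, 1 list per library. A merged region took the strongest peak of each list. The sources used here do not give thresholds, duplicate handling, strand use or read shifting. Peak lists carry no counts and TPM none, so depth is unknown and no counting interval is given.

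RNA was tested with limma 3.58.1 in R 4.3.3 on log2(TPM + 1), with an intensity trend and genotype as the only term, over 13228 genes with a mean of at least 1 TPM. Benjamini-Hochberg adjusted p under 0.05 was the threshold. Low genes change by more in TPM than this scale shows. The code was tested on simulated data. The nearest gene is the one with the nearest start among all starts in the expression files, which give gene extents and no exons, so members are placed inside or between genes only. Without a genome, planned summit windows were not analysed here, and letters come from RefSeq start windows (GRCm38.p6).

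Named genes were Tcf7, Lef1, nearest genes of the 12 domains with most regions, among called nearest genes with replicates apart the 12 that fell most and the 8 that rose most, and nearest genes on 9 lists. Itga4, Tgfbr2, Foxn3, Aldh1a3, 5830411N06Rik, Echs1, Olfr1373, 9530068E07Rik, genes of domains of 4 or more regions and genes of just-inside regions were named with their values seen. The regions, lists and rules were chosen with earlier results of these data known. Alternatives covered the region rule, the gene assignment, the RNA scale and filter, scaling, single libraries and the replicate block.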

Additional observations from a re-analysis of the deposited data

How the results depend on the processing

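In all 27 alternatives to the region rule, the gene assignment and the RNA fit, the share of nearest genes that were lower stood above that of all genes (16.95% to 42.3%), and the share that were higher stood below it. Linking centres within 10 kb gave 861 regions with 91 lower and 44 higher nearest genes, and within 50 kb 2762 regions with 263 and 164. Leaving out 1 ATAC list asks for fewer lists by construction and gave 2853 to 4378 regions, with 242 to 331 lower and 170 to 237 higher genes. Leaving out 1 RNA library gave 99 to 129 lower and 54 to 66 higher nearest genes, and 1088 to 1450 lower and 2005 to 2242 higher among all genes. Taking the gene that covers the centre gave 89 lower and 71 higher of 380 tested (23.4% and 18.7%). All starts within 100 kb gave 309 and 304 of 1481 (20.9% and 20.5%). Starts of genes with a mean of at least 1 TPM gave 212 and 135 of 805 (26.3% and 16.8%). Over all genes the shares beside these were 14.7% and 25.2%. The all-gene share that was lower varied with the fit, from 7.51% with no filter on low values to 18.1% under median-ratio scaling.

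The next 3 alternatives were chosen after seeing the data. Domains of at least 3 regions gave 532 regions with 60 lower and 14 higher genes. A −log10 q of at least 10 in every member gave 775 regions with 115 lower and 53 higher genes. The 775 match the count of all members at that value, so the partner of a region may lie below it. Leaving out the domains at Tcf7 and Lef1 gave 162 lower and 88 higher. Over all genes the calls were 1940 lower and 3331 higher, and 2391 and 2575 under median-ratio scaling, which moved the median log2 change from 0.09 to 0.01. Deviations of same-numbered libraries had a correlation of 0.00432 over 13228 genes, so the libraries share only a number. With the replicate block, 150 nearest genes were lower and 88 higher. It ended the calls of Irf8 (adjusted p = 0.0606), Axin2, Dguok and Olfr524 among the genes named. Of 53 genes named that passed, 20 lost the call in some alternative and 0 reversed. Itga4, Tgfbr2, 5830411N06Rik and Echs1 kept it in every RNA alternative that tested them (5830411N06Rik was under the 5 TPM filter). Of 19 tested genes that did not pass, 5 did so in some alternative, all as lower (Foxn3, Camk2d, Galnt2, Snx20 and Tet3), each under both quantile normalization and median-ratio scaling. The planned windows around summits were not run, since they need a genome. Peaks near the callers' threshold, with no counts, limit what absence from a knockout list shows.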
